A study of Homo sapiens with 2 samples.

Results

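SNAP25 and a group of genes for regulated secretion were read on the arrays of AGS cells with or without WTX overexpression. The group held 10 genes, the SNARE genes SNAP25, SNAP23, STX1A and VAMP2, the vesicle genes SYT1 and SYP, and the granule genes CHGA, CHGB, SCG2 and SCG5. They were chosen by gene symbol, with the SNAP25 difference and other results of these data known, from 19775 genes that had a probe set of their own. All 18 probe sets that the platform annotation assigned to 1 of these symbols alone were used, of 54613 in all. AGS is a gastric adenocarcinoma cell line. AGS.W cells carried a lentiviral vector with the coding region of WTX (AMER1) and AGS.veh cells the control vector, and both stable lines were selected with puromycin. Whether they were single clones is not given in the sources used here. RNA of either line was read on 1 Affymetrix U133 Plus 2.0 array, an older design that measures a transcript by sets of short probes. Differences are AGS.W minus AGS.veh on the log2 scale. As the lines had 1 array each, a difference compares 2 cultures and carries neither an error nor a p-value. An array reads RNA of the whole culture, so more cells that express a gene and more RNA per cell cannot be told apart.

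In regulated secretion a cell stores hormones or transmitters in vesicles and releases them when calcium enters. VAMP2 on the vesicle pairs with STX1A and SNAP25 on the plasma membrane into the SNARE complex, which draws the membranes together, and SYT1 is the calcium sensor that triggers their fusion. Granins such as CHGA, CHGB and SCG2 are acidic proteins packed with the hormones in dense-core granules. In the stomach, scattered endocrine cells that release gastrin, histamine, ghrelin or somatostatin use this machinery, and pathologists stain CHGA and SYP to recognise neuroendocrine tumours. SNAP23 is the relative of SNAP25 that most other cells use for membrane fusion.

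SNAP25 was the single gene of the group at least 2-fold apart between the lines, and it was higher in AGS.W. The dense-core granule gene SCG5 followed just below 2-fold, whereas CHGA, CHGB, SYP, SYT1, STX1A, VAMP2 and SNAP23 were less than 0.25 apart on the log2 scale in their brightest probe set. Each gene was represented by its probe set of highest mean signal. Genes whose signal reached the median of the array on at least 1 array were counted as above the signal filter, which 6 of the 10 genes passed. Of these 6 genes, SNAP25 was past 2-fold upward in AGS.W and 0 genes were past it downward. Over the whole array 12811 genes passed the same filter, and 3.78% of them differed by 2-fold or more, with 1.83% higher and 1.94% lower in AGS.W cells than in AGS.veh cells. The median difference of the 6 genes was 0.01, beside -0.01 for all genes above the filter.

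The arrays had a median log2 signal of 4.02 in AGS.W cells and 4.03 in AGS.veh cells, with upper quartiles of 5.83 on both. WTX itself was read by 1 probe set, with log2 signals of 3.70 in AGS.W cells and 3.86 in AGS.veh cells, below both medians. The difference was -0.16, so this probe set did not read higher in AGS.W. Its position relative to the coding region in the vector was not settled, and what its values mean for the labels was not tested.

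Of the 18 probe sets, 7 reached the median of both arrays, 3 that of the AGS.W array alone and 8 that of neither. The 3 that crossed the median were a pair of SNAP25 probe sets and that of SCG5. Only 1 probe set, that of SNAP23, exceeded the upper quartile of both arrays. Of the 18, 12 read higher in AGS.W, 5 read lower and 1 had the same value on both arrays, as had 12.6% of all probe sets. The differences were mostly small, with 13 of the 18 less than 0.25 apart. The shares of all probe sets that read higher or lower are not given here, so these directions are no result about the group. Of the 10 that reached the median on at least 1 array, 1 was at least 2-fold apart, beside 3.87% of all 23332 single-gene probe sets above the signal filter.

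**Figure D1:**
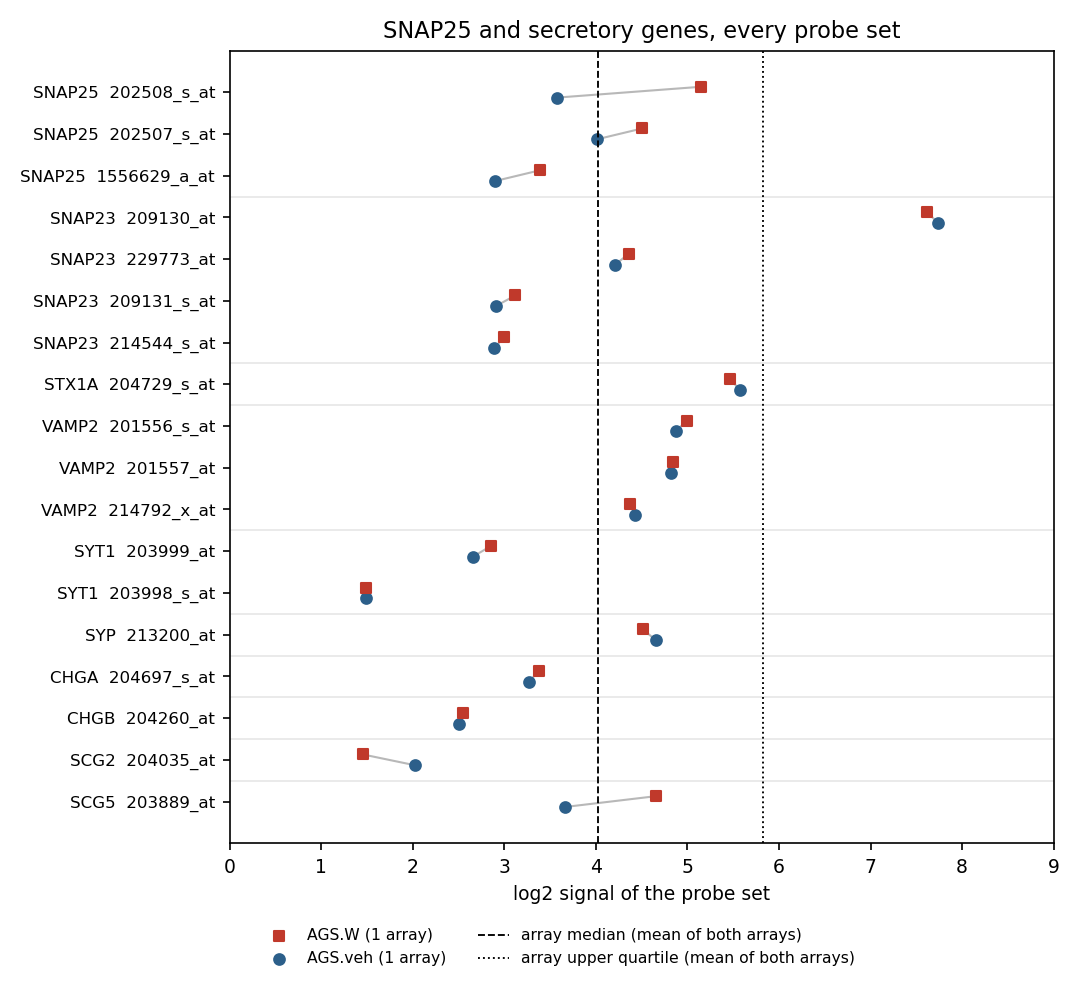
Log2 signal (horizontal axis) of every probe set of SNAP25 and the other 9 genes in AGS.W (squares) and AGS.veh (circles), 1 array each, with the array median (dashed) and upper quartile (dotted) as the mean of both arrays. SNAP25 202508_s_at, with 5.15 in AGS.W cells and 3.57 in AGS.veh cells, and SCG5, with 4.66 in AGS.W cells and 3.66 in AGS.veh cells, lie on either side of the median, while most other pairs of points nearly coincide.

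SNAP25, the membrane SNARE of neurons and endocrine cells, was read by 3 probe sets, and all 3 were higher in AGS.W. Its brightest, 202508_s_at, had a log2 signal of 5.15 in AGS.W cells and 3.57 in AGS.veh cells, a difference of 1.57 or 2.98-fold. In AGS.W this probe set was above 67.2% of all probe sets of the array, against 41.4% in AGS.veh. The second, 202507_s_at, had 4.50 in AGS.W and 4.01 in AGS.veh, a difference of 0.49, or 1.41-fold. The third, 1556629_a_at, had 3.39 in AGS.W and 2.90 in AGS.veh, again a difference of 0.49. The probe sets thus shared a direction, while 1 of 3 reached 2-fold.

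The size of the SNAP25 difference depended on which probe set was read. As the mean of all 3 probe sets SNAP25 had a difference of 0.85, and as the mean of the pair that reached the median it had 1.03. Without probe sets of the suffixes _s_at and _x_at, 1556629_a_at with 0.49 was left, which lay below the median of both arrays. All 3 SNAP25 signals in AGS.veh were dimmer than the array median. With signals under the median raised to it, a setting added once the values were known, the difference of SNAP25 was 1.12, or 2.18-fold.

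Among the 12811 genes above the filter, SNAP25 ranked at place 57 from the top by difference. Of the 1501 genes whose mean signal lay within 0.25 of that of SNAP25, 0.999% were at least 2-fold higher in AGS.W, and 3, SNAP25 included, were at least as high as SNAP25. The middle 95% of differences of these genes ran from -0.79 to 0.59. SNAP25 passed the filter through its AGS.W signal alone, and these counts describe the 2 arrays and are no test of the lines.

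**Figure D2:**
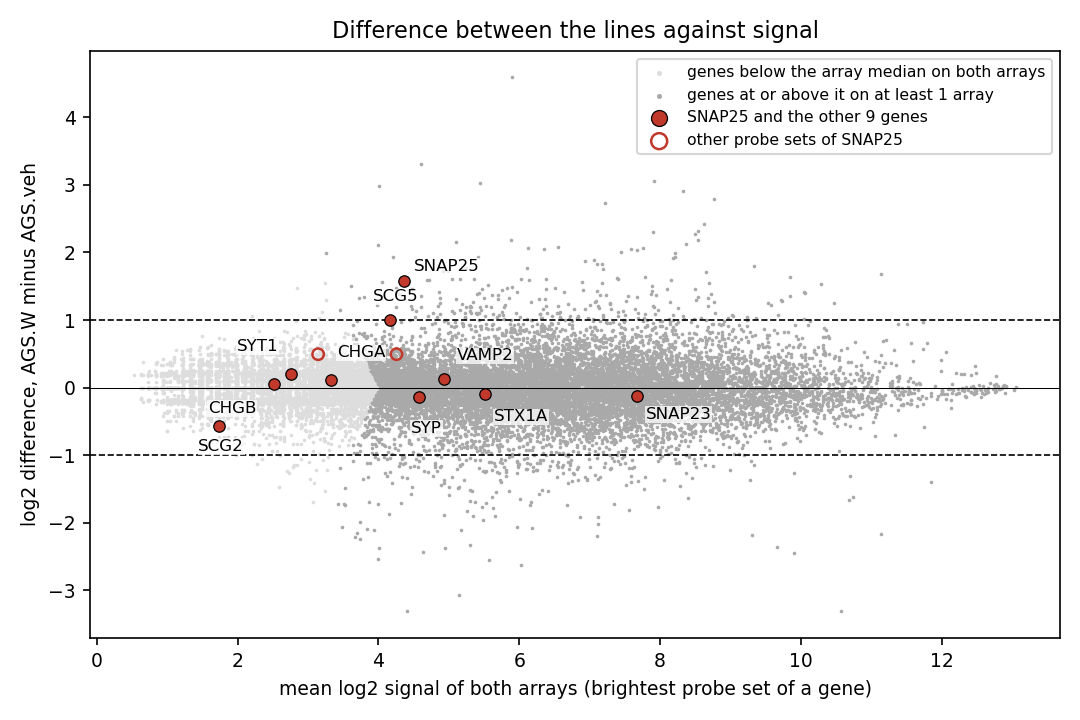
Log2 difference AGS.W minus AGS.veh (vertical axis) against the mean log2 signal of both arrays (horizontal axis) for the brightest probe set of each of 19775 genes, with dashed lines at 2-fold. SNAP25 at 1.57 stands above the line and SCG5 at 0.996 just under it, while the other probe sets of SNAP25 (open circles) lie at 0.49 and SCG2 at -0.57.

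SNAP23, which serves membrane fusion in most tissues, did not share the SNAP25 pattern. Its brightest probe set, 209130_at, had a log2 signal of 7.61 in AGS.W cells and 7.74 in AGS.veh cells, a difference of -0.12, and was above 90.0% of probe sets in AGS.W and 90.7% in AGS.veh. The second, 229773_at, had 4.36 in AGS.W and 4.21 in AGS.veh. The other probe sets of SNAP23, 209131_s_at and 214544_s_at, lay below the median of both arrays with differences of 0.22 and 0.11. No probe set of SNAP23 was above a difference of 0.22 in either direction.

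The partners of SNAP25 in the SNARE complex differed little between the lines. STX1A, the syntaxin of neuronal plasma membranes, had a log2 signal of 5.47 in AGS.W cells and 5.57 in AGS.veh cells on its single probe set, a difference of -0.10. VAMP2, the vesicle SNARE, was read by 3 probe sets, each brighter than the median of both arrays. The brightest of VAMP2 had 4.99 in AGS.W and 4.87 in AGS.veh, a difference of 0.12, and the others had differences of 0.03 and -0.06. All readings of VAMP2 thus stayed near 0.

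SYT1 and SYP, the vesicle proteins of the group, lay on opposite sides of the median. SYT1, the calcium sensor, had 2.86 in AGS.W and 2.66 in AGS.veh on 203999_at, a difference of 0.20. The other SYT1 probe set, 203998_s_at, had the same log2 signal of 1.49 on both arrays. SYT1 was thus dim on both arrays by either probe set. SYP (synaptophysin), a protein of the vesicle membrane, had 4.51 in AGS.W and 4.65 in AGS.veh, a difference of -0.15, above the median on both arrays.

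The granins gave no common direction. CHGA had a log2 signal of 3.38 in AGS.W cells and 3.27 in AGS.veh cells, and CHGB had 2.55 in AGS.W and 2.50 in AGS.veh, differences of 0.11 and 0.05. SCG2 (secretogranin II) had 1.45 in AGS.W and 2.02 in AGS.veh, a difference of -0.57. All 3 granins were dimmer than the median of both arrays, and with dim signals raised to that median the difference of SCG2 was -0.004. CHGA was above 37.4% of probe sets in AGS.W and 35.7% in AGS.veh. SCG2 was above 6.66% of probe sets in AGS.W and 14.6% in AGS.veh. CHGA and CHGB, granins by which neuroendocrine cells are recognised, were thus dim on both arrays, while SYP was above the median.

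SCG5 (7B2), the chaperone that accompanies the prohormone convertase PCSK2 through the secretory pathway, had the second largest difference of the group after SNAP25. Its single probe set, 203889_at, had a log2 signal of 4.66 in AGS.W cells and 3.66 in AGS.veh cells. The difference was 0.996, or 1.995-fold, just under the threshold, and it passed 2-fold when each array was centred on its own median. The AGS.veh signal of SCG5 lay below the array median, and with dim signals raised to that median the difference was 0.63. Of 1434 genes above the filter with a mean signal within 0.25 of that of SCG5, 12 had at least its difference, SCG5 included. SCG5 passed the filter through its AGS.W signal alone, and this count is no test of the lines.

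Many of the small differences in the group were values that recur over the array. The 0.20 of SYT1 was found, to 6 decimals, on 411 probe sets in all, the 0.11 of CHGA on 80 and the 0.22 of SNAP23 209131_s_at on 179. The 0.49 of SNAP25 202507_s_at was found on 61 probe sets and that of 1556629_a_at on 89. In contrast, the differences of SNAP25 202508_s_at and of SCG5 were found on no other probe set. Differences at low signal therefore came in steps of the deposited values, and the cause was not tested.

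Promoter windows of RefSeq (GRCh38.p14, 250 bases before to 50 bases after the start of a gene) were read for 6 of the 10 genes, in 7 windows. SNAP25 was not among these genes, as no window was available for it. They were searched on both strands for TTCAGCACC, the left part of the element bound by REST, the repressor of neuronal genes. The motif was found in none of the 7 windows and in 0.376% of all 35116 windows of the table, which says only that these letters are not in the windows. The window of SCG5 is shown as that of the gene with the largest difference among those with a window, and it lies on the plus strand at chr15:32641460-32641759.
SCG5: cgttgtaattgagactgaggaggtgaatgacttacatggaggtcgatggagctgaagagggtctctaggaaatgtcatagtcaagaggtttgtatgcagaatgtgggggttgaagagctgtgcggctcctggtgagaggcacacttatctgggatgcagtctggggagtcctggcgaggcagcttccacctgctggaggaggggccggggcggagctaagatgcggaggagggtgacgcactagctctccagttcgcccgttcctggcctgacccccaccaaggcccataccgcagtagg
It is in lower case throughout, as it holds no match, and it is the window of the gene with a log2 difference of 0.996.

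Beyond the group, 7 lists of secretory genes were described by the same counts. Of their 145 genes above the filter 5 were at least 2-fold apart (RAB26, CLTRN, CPM, CGA and SOX4), or 3.45%, near the 3.78% of all genes. Of 29 further syntaxins, SNAPs, VAMPs and related SNAREs above the filter, 0 were at least 2-fold apart in their brightest probe set. These differences lay between -0.78 for VTI1B and 0.74 for VAMP4, with a median of 0.15. GOSR2 had 0.25 on the brightest of its 9 probe sets, while its others ran from -0.10 to 1.47. Of the remaining relatives of SNAP25, SNAP29 had 8.03 in AGS.W cells and 7.73 in AGS.veh cells, and SNAP47 had 7.56 in AGS.W and 7.34 in AGS.veh. Among 28 SNARE regulators and priming factors the median was 0.08, and RAB26, a small GTPase of secretory granules, was 2.06-fold higher in AGS.W, with 7.11 in AGS.W cells and 6.06 in AGS.veh cells. The second probe set of RAB26 had a difference of 1.19. None of 6 other synaptotagmins and none of 15 other vesicle membrane proteins above the filter was 2-fold apart, with medians of 0.15 and 0.05.

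Of 20 granins, processing enzymes and granule membrane proteins above the filter outside the group, 2 were past 2-fold upward and 0 downward in AGS.W, and the median was -0.01. CLTRN (collectrin), a membrane glycoprotein of kidney and of pancreatic islet cells, had a log2 signal of 7.24 in AGS.W cells and 5.77 in AGS.veh cells, a difference of 1.47 on its single probe set. CPM, a carboxypeptidase anchored at the cell surface, had 8.24 in AGS.W and 7.14 in AGS.veh, a difference of 1.10, and the differences of its 6 probe sets ran from 0.77 to 1.10. Both are proteins of the cell surface, not of the granule core. SCG3, a granin that binds CHGA, had 0.94 on both arrays, and CPE, the carboxypeptidase that trims prohormones, had 2.71 in AGS.W and 2.95 in AGS.veh, below the median.

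Of 17 genes above the filter in the list of gut hormones and amine enzymes, 1 was at least 2-fold apart, and the median was 0.00. The gene past 2-fold was CGA, which encodes the subunit that glycoprotein hormones share. The list that holds CGA was written with earlier results of these data known. CGA had 12.60 in AGS.W cells and 8.94 in AGS.veh cells, a difference of 3.66, and its other probe set had 3.63. The hormones of gastric endocrine cells stayed close to the array median or under it. GAST, the gene of gastrin, had 4.07 in AGS.W and 3.84 in AGS.veh, a difference of 0.23. GHRL, the gene of ghrelin, had 4.11 in AGS.W and 3.88 in AGS.veh, a difference of 0.22. SST, the gene of somatostatin, had 3.14 in AGS.W cells and 3.07 in AGS.veh cells, and HDC, the enzyme that makes histamine, had 2.79 in AGS.W cells and 2.71 in AGS.veh cells, and both genes were dimmer than either median.

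Among 30 factors of endocrine differentiation and of the REST complex above the filter, the median was 0.11. By brightest probe set, 0 were past 2-fold upward and 1 was past it downward in AGS.W. The lower one was SOX4, a transcription factor of progenitor cells, with 8.17 in AGS.W cells and 9.34 in AGS.veh cells. Its difference was -1.16, while over its 6 probe sets the differences ran from -1.35 to 0.22. Probe sets other than the brightest also went past 2-fold for CREM, ATF3 and RFX3. Those of CREM ran from -0.35 to 1.15, of ATF3 from 0.12 to 1.18 and of RFX3 from -1.74 to -0.20. REST had a log2 signal of 6.08 in AGS.W cells and 6.19 in AGS.veh cells, a difference of -0.11. INSM1, a factor of endocrine progenitors, had 1.30 in AGS.W and 1.87 in AGS.veh, far below the median on both.

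**Figure D3:**
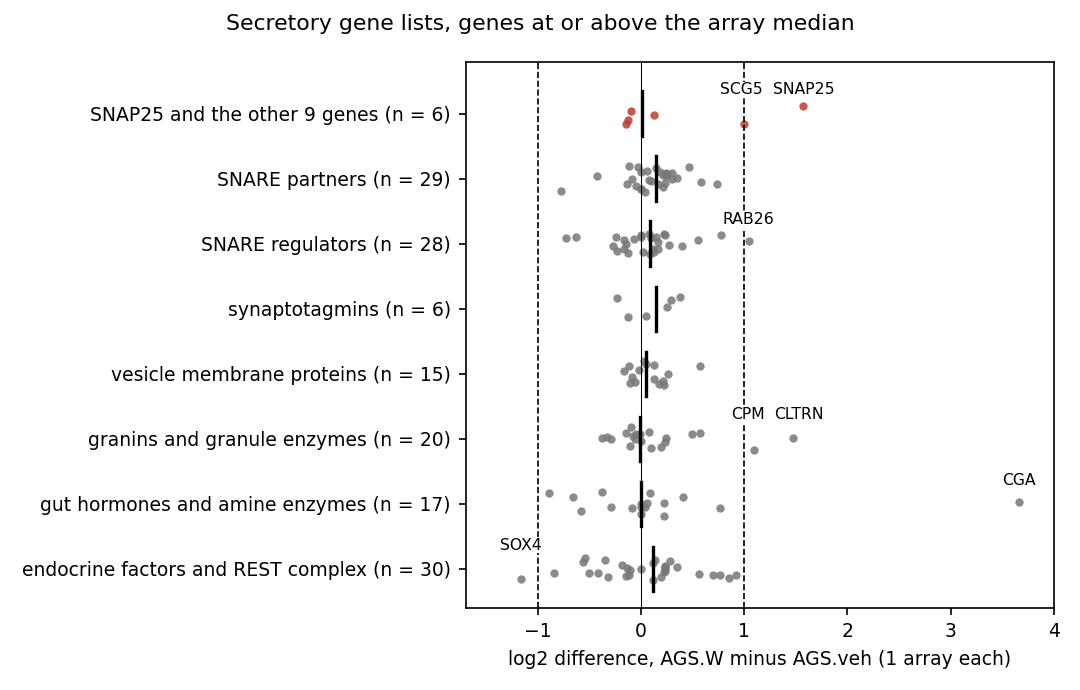
Log2 difference AGS.W minus AGS.veh (horizontal axis) of genes at or above the array median on at least 1 array, for SNAP25 and the other 9 genes (top row) and 7 secretory gene lists, with a bar at each median and dashed lines at 2-fold. Genes at least 2-fold apart are named, as is SCG5 at 0.996, and the median of every row lies between -0.01 and 0.15.

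The extraction field of the labels speaks of brain tissue, whereas the other fields name AGS cells, and SNAP25, SYT1 and SYP are abundant in neurons. Of all 19775 genes, 12811 passed the signal filter, the base against which the marker counts here stand. Of 20 neuron markers outside the group, 9 were above the signal filter and 0 of these were 2-fold apart, with a median difference of -0.05. The summed linear signal of all 20 neuron markers was 1480 in AGS.W cells and 1538 in AGS.veh cells. Their median log2 signal, also over all 20, was 3.78 in AGS.W cells and 3.59 in AGS.veh cells. The tubulin gene TUBB3, the brightest of them, made up most of the sum, and the other markers summed to 501 in AGS.W and 525 in AGS.veh. The neurofilament gene NEFL had a log2 signal of 3.23 in AGS.W cells and 3.03 in AGS.veh cells, and STMN2, abundant in neurons, had 2.72 in AGS.W and 2.95 in AGS.veh, below the median. NEFL and STMN2 belonged to the 11 neuron markers that failed the filter. The 9 that passed were brighter than the median of both arrays. Of these, GAD1 read 7.06 (AGS.W) against 7.11 (AGS.veh), and INA read 6.28 (AGS.W) against 6.55 (AGS.veh). GAD1 and INA thus exceeded the upper quartile of either array. Of 14 markers of astrocytes and oligodendrocytes 7 were above the filter. The summed linear signal of all 14 was 420 in AGS.W cells and 413 in AGS.veh cells. Of 20 epithelial markers 14 passed the filter, and the keratin KRT18 had a log2 signal of 10.87 in AGS.W cells and 11.17 in AGS.veh cells, although CDH1 (E-cadherin) had 2.72 in AGS.W and 2.50 in AGS.veh. The part of the neuron markers in the SNAP25 difference was not tested.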

How the data were processed

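The deposited values were log2 signals per probe set. Both columns had nearly the same distribution and were taken as already normalized between the arrays. Per the labels RMA and MAS5 were used by the authors, with roles and versions not given in the sources used here. Control probe sets (62) were left out. The annotation of 2016 gave 41091 probe sets a single gene, with symbols updated through RefSeq identifiers (54 kept as they were), and probe sets of several genes were not used. The study filtered on 2-fold and FDR, of which 2-fold was kept.

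The 10 genes and the 7 lists, written from general knowledge, were chosen with earlier results of these data known. Named were all 10 genes, up to 3 genes in each direction per list at least 2-fold apart, and CGA, REST and INSM1. Other genes were named for their role, or as the ends of the range of a list. Alternatives were 3 scalings, other ways to join probe sets, other fold thresholds and signal filters, and a floor at the array median, added once the values were known. The scripts were tested on simulated data. A promoter window and the motif matched in it are not reported here. Precision is limited by having 1 array per line and, for dim probe sets, by signal over background. The software was Python 3.11.15, numpy 2.4.6, statsmodels 0.14.6, pandas 2.3.3 and matplotlib 3.10.9.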

Additional observations from a re-analysis of the deposited data

How the results depend on the processing

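No paired analysis was possible because there were only 2 arrays, 1 of AGS.W and 1 of AGS.veh, which also left no replicate to leave out. The offset planned for linear values was not run, since the values were already logarithms. Each shift was compared with a robust spread of the genes nearest in signal, and 58 of 64 alternative differences of the 10 genes stayed within it. Joining probe sets could not move the 6 genes that had 1 probe set, so this count is no measure of stability. Every alternative difference of SNAP25, apart from those under scaling, moved beyond the spread. Scaling moved a difference by at most 0.023. This still took SCG5 past 2-fold under median centring, where 2 genes of the group and 490 of the array were counted. With the mean of all probe sets SNAP25 had 0.85. At least 2-fold apart were 0 genes of the group, 279 of the array, 1 of the granule list and 0 of the transcription factor list. With the mean of the probe sets at or above the median SNAP25 had 1.03. Counted were 1 gene of the group, 1 granule gene and 396 genes of the array. Without _x_at and _s_at probe sets SNAP25 had 0.49, while CHGA and STX1A had no value. Counted were 0 genes of the group, 2 transcription factor genes and 436 genes of the array. The number of genes above the filter under each of these settings is not given here, so their counts carry no share. At 1.5-fold, with the filter unchanged, the counts were 2 of the 6 genes of the group above the filter and 1795 of the 12811 genes of the array. They were 2 of 29 SNARE partners, 4 of 28 SNARE regulators, 4 of 17 hormone genes and 6 of 30 transcription factor genes. At 3-fold they were 0 of the 6 genes of the group, 113 of the 12811 of the array, and 0 each of SNARE regulators, granule and transcription factor genes. With the median required on both arrays, SNAP25 and SCG5 were left out by their AGS.veh signals before counting. Of the 4 genes that remained 0 were counted, beside 403 genes of the array, again without a share. With signals below the median set to it, SNAP25 had 1.12, SCG5 0.63 and SCG2 -0.004. In place of the 10 probe sets at or above the median, 1 reached the upper quartile.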

Other observations

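The deposited differences were graded in steps. Over all 54613 probe sets, 75.8% had a difference between the lines that another probe set shared to 6 decimals, and 55.2% had one that at least 9 others shared. This share was 83.6% among probe sets below the median of both arrays and 6.32% among those at or above the upper quartile of both. The value 0 was found on 6900 probe sets, and the most frequent other value, 0.09, on 422. Of the 18 probe sets of SNAP25 and the other secretory genes, 13 had a difference that at least 9 others shared. The cause was not tested.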
